A study of Mus musculus with 6 samples.

Results

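The 46 genes described here copy DNA in S phase. They license and fire replication origins, build the replicative helicase and polymerases, load the sliding clamp, supply nucleotides, and reassemble chromatin behind the fork. They were taken by gene symbol from a list made with earlier results of these libraries known, and 46 of 46 were found among the 23443 symbols of the deposited tables. All 46 were also among the 10799 genes tested, those with at least 1 FPKM (fragments per kilobase, adjusted for library depth) in at least 2 of the 6 libraries.

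The cells came from the palatal shelves of mouse embryos of a mixed strain background, the paired outgrowths that grow and fuse into the roof of the mouth. All 6 libraries were made from cells sorted for red fluorescent protein (RFP), and every embryo carried an Osr2RFP allele, so the controls carried it too. Mutants were Osr2RFP/- and controls Osr2RFP/+, where Osr2 is a zinc finger factor on which growth of the shelves depends. At embryonic day 12.5 (E12.5) there was 1 mutant and 1 control library, and at E13.5 there were 2 of each. The labels do not say how the RFP or null allele was built, nor how many embryos went into a library. P-values therefore measure only the spread between these libraries.

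Before S phase, the origin recognition complex, Cdc6 and Cdt1 load the hexameric MCM helicase onto origins, and kinases then convert it to an active helicase by adding Cdc45 and GINS. DNA polymerase alpha with primase starts each strand, the clamp loader replication factor C places the PCNA ring, and polymerases delta and epsilon extend. Transcription factors of the E2F family switch on many of these genes near the start of S phase, so the levels in bulk RNA follow how many cells are cycling as well as how much RNA each cycling cell makes. In these bulk libraries, fewer cells of a type and less RNA per cell cannot be told apart.

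The libraries differed in ways that touch the results below. Estimated depth ran from 14100000 to 17970000 fragments, and no member had fewer than an estimated 187 fragments in any library. The FPKM values of the E12.5 mutant library summed to 189855, against 154919 to 167058 in the other 5 libraries, so the counts and medians that turn on it are also given after scaling all libraries to one FPKM sum. All other values are on the authors' scale. The number before the hyphen in the sample titles is 2962 throughout E12.5. At E13.5 mutant replicate 1 alone has 3047, the other 3 libraries share 3048, and the meaning of these numbers is not stated. Osr2 was at 163 FPKM in the E12.5 mutant, 215 in the E12.5 control, then 68.5 and 88.4 at E13.5 among mutants against 138 and 152 among controls. Xist, the RNA that coats the inactive X, was at 129 to 141 FPKM in both E12.5 libraries and in E13.5 mutant replicate 2, and at 0.0194 FPKM or less in the other 3. Erythroid marker genes summed to 582 and 615 FPKM at E12.5 and to 236 to 537 at E13.5, lowest in E13.5 mutant replicate 2. Of 10 neuron and glia markers the sum was 34.1 and 44.1 FPKM at E12.5, 51.0 and 55.2 in the E13.5 controls and 80.2 and 91.2 in the E13.5 mutants. Palatal mesenchyme markers summed to 810 to 971 FPKM, while 8 epithelial markers reached at most 4.75, 8 leukocyte markers 4.28, 8 muscle markers 2.62 and 8 endothelial markers 0.673. What part these differences have in the results was not tested.

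Replication genes were detected in every library and spanned a wide range of levels. Mean FPKM over the 6 libraries ran from 1.82 for Orc1, a subunit of the origin recognition complex, to 82.9 for Pcna, with a median of 12.4. Only 6 members had a mean under 5 FPKM, and 12 had 20 or more. The 46 values together summed to 899 FPKM in the E12.5 mutant, 736 in the E12.5 control, 654 and 695 in the E13.5 mutants and 656 and 623 in the E13.5 controls. As a share of all FPKM in the library, that was 0.473% and 0.475% at E12.5, 0.394% and 0.429% in the E13.5 mutants and 0.393% and 0.394% in the E13.5 controls. Both E12.5 libraries lay above all 4 E13.5 libraries on either measure, and E13.5 mutant replicate 2 had the highest share of the E13.5 libraries.

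**Figure D1:**
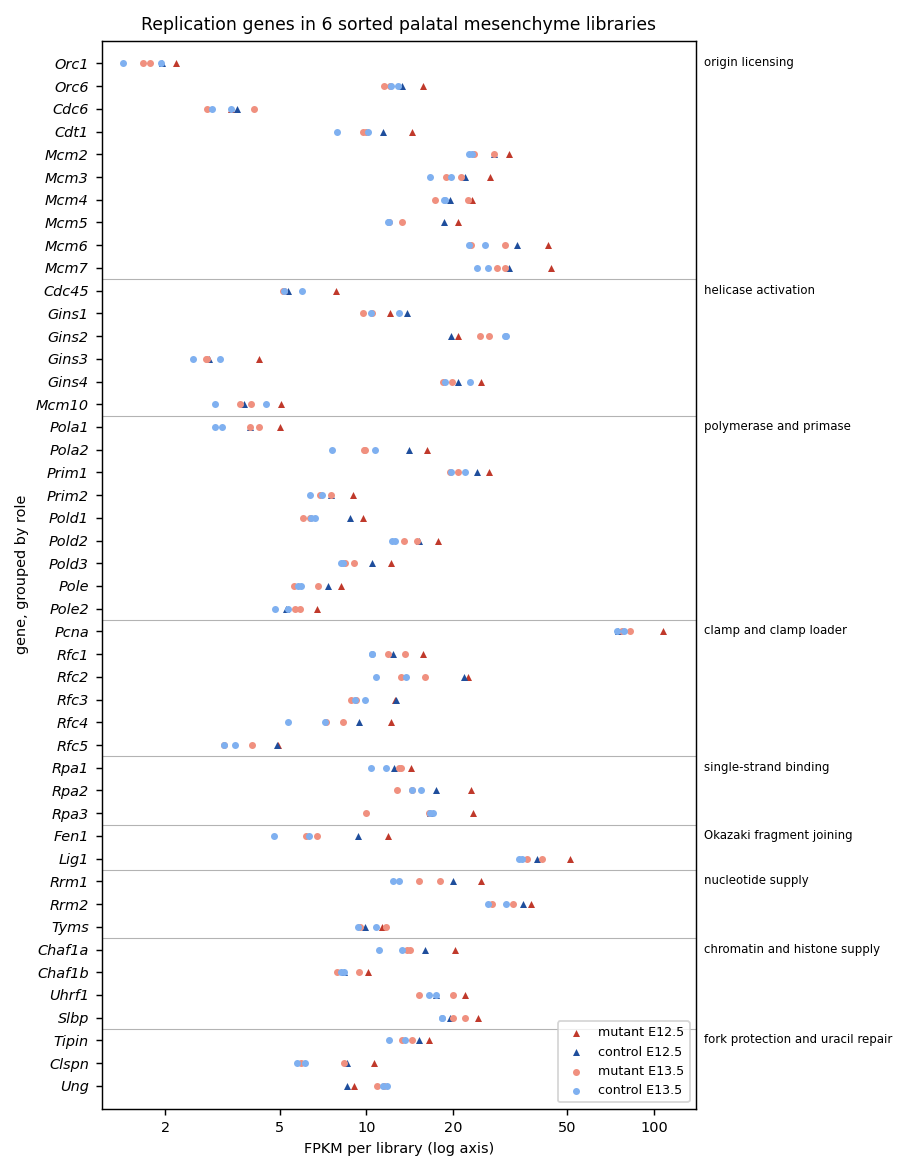
FPKM of each of the 46 replication genes in each of the 6 libraries, on a log axis and grouped by role. Triangles are the E12.5 libraries (1 mutant, 1 control) and circles the E13.5 libraries (2 mutant, 2 control). The dark red triangle of the E12.5 mutant is the rightmost mark for 40 of the 46 genes.

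The comparison of E13.5 with E12.5 asks how the replication programme moves as the palatal shelves grow. Of the 46 genes, 16 fell and 2 rose between the ages, and 28 did not pass the threshold (limma, age and genotype in one model, adjusted p under 0.05 over all genes tested). The 16 that fell are 34.8% of the members, against 9.26% of all genes tested, and the 2 that rose are 4.35%, against 7.45%. By sign alone 44 of the 46 were lower at E13.5, on a scale where the median of all genes tested was also negative. The median member differed by -0.28 on the log2(FPKM + 1) scale, against -0.07 for the median of all genes tested, and single members ran from -0.73 (Fen1) to 0.45 (Gins2). In 26 members (56.5%) all 4 E13.5 libraries lay below both E12.5 libraries, which held for 22.9% of genes tested. After scaling to one FPKM sum these were 24 members (52.2%) against 20.3%, and the median member was at -0.21 against -0.01 for all genes. On that scale 12 members were called lower and 2 higher, with 1741 of 10794 genes called in either direction. By sign 3 of the 46 were then higher.

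Those calls rest on the pair of E12.5 libraries. Without the E12.5 mutant library, no member was called in either direction (465 genes called in all), and without the E12.5 control 3 members were called lower and none higher (718 genes in all). Leaving out any E13.5 library left 10 or 11 called lower, with 10 without E13.5 control replicate 2. Calls over all genes also went down, from 1804 to 1343 and 1713 without E13.5 mutant replicates 1 and 2. Without E13.5 control replicates 1 and 2 they were 1201 and 1476. Neither gene that rose kept its call without E13.5 control replicate 1 or 2, Gins2 also lost it without mutant replicate 1, and Ung without mutant replicate 2. With all libraries, Cdt1, Pold3, Rfc5 and Clspn lost their call after scaling to one FPKM sum, Rfc5 and Rpa2 with either of the other 2 scalings, and 13 of the 18 when no filter on low values was set. Without that filter 679 of 17711 genes were called in all, against 1804 of 10799 with it. Since no E13.5 library has the E12.5 libraries' title number, age and whatever that number stands for cannot be told apart.

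**Figure D2:**
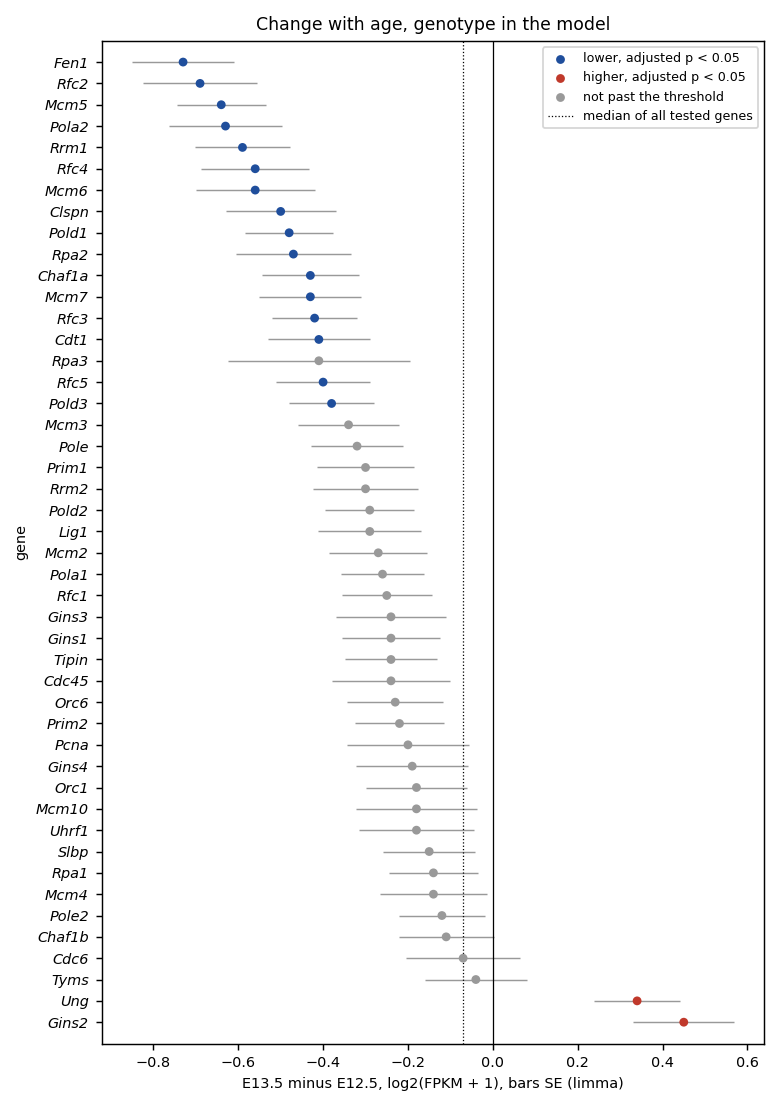
Difference between E13.5 and E12.5 for each of the 46 genes on the log2(FPKM + 1) scale, with bars for the standard error of the limma fit over 6 libraries. Genes past the adjusted p threshold are blue (16 lower) or red (2 higher), and the dotted line is the median of all genes tested, at -0.07.

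Origin licensing genes fell in 4 of 10 cases: Mcm5, Mcm6, Mcm7 and Cdt1. Mcm5, one of the 6 ring subunits of the helicase, was at 20.8 (mutant) and 18.7 (control) FPKM at E12.5, and at 12.0 and 13.3 (mutants) and 11.9 and 12.0 (controls) at E13.5. All 4 E13.5 libraries lay well below both E12.5 libraries, and the ring subunit fell by 0.64 on the log2 scale (SE 0.105, 1.56-fold lower, limma adjusted p = 0.00446). Mcm6 was at 42.9 (mutant) and 33.3 (control) FPKM at E12.5, and at 23.2 and 30.4 (mutants) and 25.8 and 22.8 (controls) at E13.5. Ages did not overlap for it either, and it was 1.47-fold lower (log2 -0.56, SE 0.14, adjusted p = 0.0254). Mcm7, the most abundant of the licensing genes, had 44.0 (mutant) and 31.3 (control) FPKM at E12.5, then 28.4 and 30.3 (mutants) and 26.6 and 24.3 (controls). The E12.5 control and the higher E13.5 mutant were close, and Mcm7 was 1.35-fold lower at E13.5 (log2 -0.43, SE 0.12, adjusted p = 0.0385). The microRNA genes Mir25, Mir93 and Mir106b lie within its locus. Cdt1, the loading factor that is degraded once S phase begins, had 14.4 (mutant) and 11.4 (control) FPKM, then 9.71 and 9.97 (mutants) and 10.1 and 7.89 (controls). It was 1.33-fold lower (adjusted p = 0.0461), and it lost its call when the libraries were scaled to one FPKM sum (adjusted p = 0.0574, within 0.0302 to 0.35 over its alternatives).

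The remaining 3 MCM ring subunits differed less. Mcm3 was -0.34 (SE 0.119, adjusted p = 0.0814), Mcm2 -0.27 (SE 0.115, adjusted p = 0.13) and Mcm4 -0.14 (SE 0.127, adjusted p = 0.471). Although the 6 subunits form one ring, their FPKM values were unequal in every library, with the highest 1.79 to 2.36 times the lowest. Mcm5 was the lowest of the 6 in every library, at 11.9 to 13.3 FPKM at E13.5. Orc1 (log2 -0.18), Orc6 (-0.23) and Cdc6 (-0.07), which act before the MCM ring is loaded, did not pass the threshold, and their levels ran from 1.43 to 15.7 FPKM over the libraries.

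Among the ring genes that did not pass, the Mcm3 promoter holds letters bound by E2F factors and that of Mcm2 does not. No promoter window was available for Mcm4. The promoters of the 3 ring genes that fell, each holding such letters too, are shown here. They are RefSeq windows of 300 bases on GRCm38.p6, read 5′ to 3′ on the gene's strand, with exact matches on either strand to TTTCCCGC, TTTGGCGC, TTTCGCGC or TTTGCCGC in capitals. Matches may overlap, and in Mcm5 and Mcm6 a match on each strand overlaps the other and gives a run of 12 capitals. The windows lie at chr8:75109259-75109558 (Mcm5, plus strand), chr1:128359656-128359955 (Mcm6, minus strand) and chr5:138171834-138172133 (Mcm7, minus strand). Their RefSeq start sites are 19, 49 and 21 bases from the starts of the deposited Mcm5, Mcm6 and Mcm7 transcripts.
Mcm5: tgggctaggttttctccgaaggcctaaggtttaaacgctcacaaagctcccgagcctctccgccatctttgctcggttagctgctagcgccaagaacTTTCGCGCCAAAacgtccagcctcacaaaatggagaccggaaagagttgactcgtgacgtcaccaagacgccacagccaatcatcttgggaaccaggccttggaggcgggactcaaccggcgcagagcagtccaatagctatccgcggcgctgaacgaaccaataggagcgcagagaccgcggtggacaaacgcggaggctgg
Mcm6: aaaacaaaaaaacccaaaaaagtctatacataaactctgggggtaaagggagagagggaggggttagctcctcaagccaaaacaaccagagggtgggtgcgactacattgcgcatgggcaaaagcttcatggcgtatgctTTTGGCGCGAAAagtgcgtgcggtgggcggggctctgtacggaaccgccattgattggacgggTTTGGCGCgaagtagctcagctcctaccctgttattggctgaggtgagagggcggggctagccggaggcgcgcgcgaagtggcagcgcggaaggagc
Mcm7: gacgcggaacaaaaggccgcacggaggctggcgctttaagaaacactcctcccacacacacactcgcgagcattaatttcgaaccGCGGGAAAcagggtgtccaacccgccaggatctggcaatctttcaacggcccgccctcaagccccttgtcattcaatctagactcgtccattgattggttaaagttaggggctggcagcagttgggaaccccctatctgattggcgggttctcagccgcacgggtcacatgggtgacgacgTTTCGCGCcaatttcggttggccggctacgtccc

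Such letters were found in 16 of the 38 members with a RefSeq window (42.1%), against 5.07% of the 8121 tested genes with one and 2.26% of all 32851 windows. Members and genes counted if any of their windows matched, so the share of windows is a different measure. CCAAT, the letters bound by NF-Y, were found on either strand in 65.8% of the 38 members and in 43.6% of tested genes. Gins1, Gins2, Gins4, Mcm4, Pole, Prim2, Rfc2 and Tipin had no window. Among the 16 members with them 8 fell and the median age difference was -0.36, and among the 22 without them 7 fell, 1 rose and the median was -0.28, and this difference was not tested. These matches describe the letters in a window and are not measured binding. The window's start site lay within 100 bases of the start of the most abundant deposited transcript for 35 of the 38 members, Cdc6, Slbp and Ung being the 3 exceptions.

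Among the helicase activation genes none of 6 fell and Gins2 rose. Gins2 encodes one of the 4 subunits of the GINS complex, which bridges the MCM ring and polymerase epsilon. It was at 20.8 (mutant) and 19.7 (control) FPKM at E12.5, and at 26.8 and 24.8 (mutants) and 30.4 and 30.7 (controls) at E13.5. Every E13.5 library lay above both E12.5 libraries, and it was 1.37-fold higher (log2 0.45, SE 0.119, adjusted p = 0.0307). The other 3 GINS subunits did not pass the threshold, at -0.24 for Gins1 and Gins3 and -0.19 for Gins4. The ratio of Gins2 to Gins1 FPKM was 1.72 and 1.42 in the E12.5 mutant and control, 2.54 in both E13.5 mutants and 2.34 and 2.94 in the E13.5 controls. Likewise, the ratio of Gins2 to Gins4 was 0.832 and 0.946 at E12.5 and 1.34 to 1.61 at E13.5. Cdc45, the third component of the active helicase, was at -0.24 (adjusted p = 0.254), and Mcm10, which helps to activate it, at -0.18 (adjusted p = 0.418). The deposited Gins2 locus overlaps that of Gse1 (mean 8.74 FPKM) by 118 bases, and reads in that stretch could count for either.

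**Figure D3:**
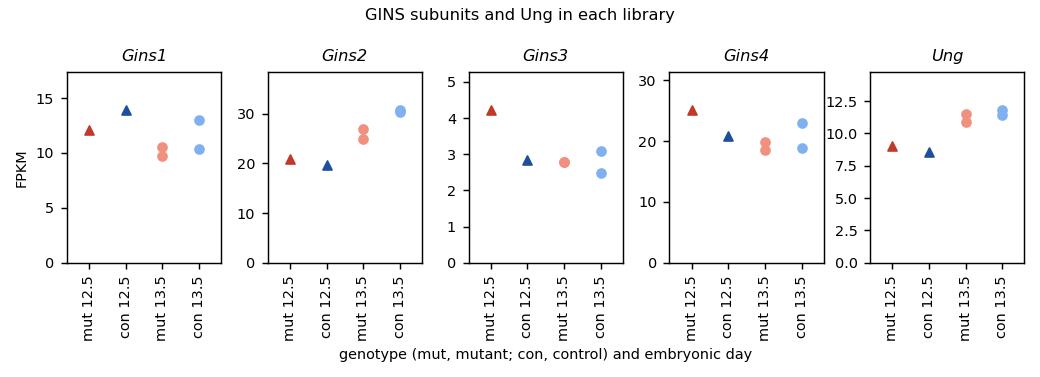
FPKM of the 4 GINS subunit genes and of Ung in each library, on linear axes from 0 with a separate scale per gene. For Gins2 the E13.5 libraries read 24.8 to 30.7 against 19.7 and 20.8 at E12.5, and for Ung 10.9 to 11.8 against 8.56 and 9.04.

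In the polymerase and primase group 3 of 9 genes fell: Pola2, Pold1 and Pold3. Pola2, the regulatory subunit of DNA polymerase alpha, was at 16.2 (mutant) and 14.1 (control) FPKM at E12.5, and at 9.92 and 9.81 (mutants) and 10.7 and 7.58 (controls) at E13.5. Its ages were clearly apart, and it was 1.54-fold lower (log2 -0.63, SE 0.133, adjusted p = 0.0139). Pold1, the catalytic subunit of polymerase delta, had 9.71 (mutant) and 8.8 (control) FPKM, then 6.03 and 6.38 (mutants) and 6.4 and 6.65 (controls). The 4 E13.5 values lay close together and below both earlier ones, 1.39-fold lower (log2 -0.48, SE 0.103, adjusted p = 0.0148). Pold3, an accessory subunit of the same enzyme, had 12.2 and 10.5 FPKM at E12.5, then 9.08 and 8.42 in mutants and 8.27 and 8.19 in controls, 1.3-fold lower (adjusted p = 0.0331). Pold2 was at -0.29 (adjusted p = 0.09). Prim1, the catalytic primase subunit and the most abundant of the group, was at 26.8 (mutant) and 24.2 (control) FPKM at E12.5, and at 19.6 and 20.9 (mutants) and 19.7 and 22.1 (controls) at E13.5. All its later values were lower, yet the difference of -0.30 (SE 0.114) did not pass (adjusted p = 0.102). Prim2 (-0.22), Pola1 (-0.26) and the polymerase epsilon subunits Pole (-0.32) and Pole2 (-0.12) did not pass either, with adjusted p-values of 0.0699 to 0.432.

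Of the 5 genes of the clamp loader, replication factor C, 4 fell. Rfc2 was at 22.5 (mutant) and 21.8 (control) FPKM at E12.5, and at 16.0 and 13.2 (mutants) and 13.7 and 10.8 (controls) at E13.5. It was 1.62-fold lower (log2 -0.69, SE 0.134, adjusted p = 0.00935). At E12.5 mutant and control were close on the authors' scale, and 19.7 against 23.4 after scaling to one FPKM sum. Rfc4 had 12.2 and 9.4 FPKM at E12.5, then 7.23 and 8.32 in mutants and 7.2 and 5.36 in controls. All 4 later values were below both earlier ones, 1.47-fold lower (log2 -0.56, SE 0.127, adjusted p = 0.0181), and its locus overlaps the abundant Eif4a2 (mean 48.8 FPKM) by 185 bases. Rfc3 had 12.6 and 12.7 FPKM at E12.5, then 9.17 and 8.86 in mutants and 9.88 and 9.11 in controls, 1.33-fold lower (adjusted p = 0.0232). Rfc5 had 4.91 and 4.89 FPKM, then 3.99 and 3.2 in mutants and 3.19 and 3.49 in controls, 1.32-fold lower (adjusted p = 0.0351). For both, every E13.5 value was below both E12.5 values on either scale. At E12.5 mutant and control were close on the authors' scale, while one FPKM sum put the mutant lower by 0.29 (Rfc3) and 0.24 (Rfc5) on the log2 scale. Rfc1, the large subunit, was at -0.25 (SE 0.106, adjusted p = 0.129).

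Pcna, the clamp itself, was at 108 FPKM in the E12.5 mutant and 74.9 in the E12.5 control, and at 77.7 and 82.8 (mutants) and 78.9 and 74.4 (controls) at E13.5. Thus 5 of the 6 libraries lay between 74.4 and 82.8 FPKM, and only the E12.5 mutant stood apart. The age difference was -0.20 (SE 0.143, adjusted p = 0.361), made up of a difference of -0.43 for mutants and 0.03 for controls, or -0.22 and -0.04 after scaling to one FPKM sum. On that scale the E12.5 values were 94.8 (mutant) and 80.3 (control) FPKM. The mouse genome holds pseudogenes of Pcna and Tyms, and how shared reads were assigned is unknown.

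Single-strand DNA binding is done by replication protein A, of which 1 of 3 genes fell. Rpa2 was at 23.1 (mutant) and 17.5 (control) FPKM at E12.5, and at 14.4 and 12.8 (mutants) and 14.4 and 15.5 (controls) at E13.5. It was 1.39-fold lower (log2 -0.47, SE 0.136, adjusted p = 0.0431), -0.73 within the mutants and -0.21 within the controls (-0.53 and -0.28 after one FPKM sum), and the call was lost with median ratio scaling (adjusted p = 0.0517, within 0.0308 to 0.502 over its alternatives). Rpa3, the smallest subunit and the most abundant of the 3, had 23.5 and 16.7 FPKM at E12.5, then 16.5 and 9.95 in mutants and 16.6 and 17.0 in controls. The E12.5 mutant was high and E13.5 mutant replicate 2 low, with the other 4 libraries between 16.5 and 17.0, and the age difference did not pass (log2 -0.41, SE 0.215, adjusted p = 0.216). Rpa1, the large subunit, was at -0.14 (adjusted p = 0.373).

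Of the genes that process and join Okazaki fragments, Fen1 fell and Lig1 did not pass. Fen1, the flap endonuclease, was at 11.9 (mutant) and 9.36 (control) FPKM at E12.5, and at 6.74 and 6.15 (mutants) and 6.31 and 4.78 (controls) at E13.5. The ages were apart, and its drop of 0.73 on the log2 scale (SE 0.121, 1.66-fold lower, adjusted p = 0.00468) was the largest of the 46. Lig1, the DNA ligase that seals the fragments, had 51.1 and 39.1 FPKM at E12.5, then 36.1 and 40.9 in mutants and 33.9 and 34.9 in controls. Only the E12.5 mutant stood clear of the others on the authors' scale, and the difference was -0.29 (SE 0.121, adjusted p = 0.127). After scaling to one FPKM sum the E12.5 mutant was at 44.7 FPKM. The E12.5 control and E13.5 mutant replicate 2 were both at 41.9 on that scale. The Lig1 locus overlaps that of 6330408A02Rik (mean 3.18 FPKM) by 1409 bases.

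Of the 3 nucleotide supply genes, 1 fell. Rrm1, the large subunit of ribonucleotide reductase, was at 25.0 (mutant) and 20.1 (control) FPKM at E12.5, and at 15.3 and 18.1 (mutants) and 13.0 and 12.4 (controls) at E13.5. It was 1.51-fold lower (log2 -0.59, SE 0.112, adjusted p = 0.00877), with mutants above controls at both ages on the authors' scale. Rrm2, the small subunit whose level peaks in S phase, had 37.3 and 35.0 FPKM at E12.5, then 27.3 and 32.5 in mutants and 30.5 and 26.6 in controls. Its later values were all lower on the authors' scale but spread widely, and it did not pass (log2 -0.30, SE 0.124, adjusted p = 0.12). After scaling to one FPKM sum, E13.5 mutant replicate 2, at 33.3 FPKM, lay above the E12.5 mutant, at 32.6. Tyms, thymidylate synthase, was at -0.04 (SE 0.12, adjusted p = 0.86).

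Among the chromatin and histone supply genes 1 of 4 fell. Chaf1a, the large subunit of the histone chaperone CAF-1, was at 20.4 (mutant) and 16.0 (control) FPKM at E12.5, and at 14.2 and 13.9 (mutants) and 13.3 and 11.1 (controls) at E13.5. It was 1.35-fold lower with no overlap of the ages (log2 -0.43, SE 0.114, adjusted p = 0.0307), while its partner subunit Chaf1b was at -0.11 (adjusted p = 0.536). Slbp, which binds the stem-loop of histone mRNAs, had 24.5 and 19.6 FPKM at E12.5, then 20.1 and 22.1 in mutants and 18.3 and 18.4 in controls, and overlapped between the ages (log2 -0.15, adjusted p = 0.365). Uhrf1, which brings maintenance DNA methylation to new strands, was at -0.18 (adjusted p = 0.392).

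Fork protection and uracil repair held 1 gene that fell and 1 that rose. Clspn, which encodes the checkpoint mediator claspin, was at 10.6 (mutant) and 8.56 (control) FPKM at E12.5, and at 5.92 and 8.34 (mutants) and 6.12 and 5.74 (controls) at E13.5. E13.5 mutant replicate 2 stayed near the E12.5 control, the other 3 were lower, and the gene was 1.41-fold lower overall (log2 -0.50, SE 0.13, adjusted p = 0.0303). Tipin, a part of the fork protection complex and the most abundant of the 3, had 16.5 and 15.2 FPKM at E12.5, then 14.4 and 13.3 in mutants and 13.6 and 12.0 in controls. All its later values were lower, without passing the threshold (log2 -0.24, SE 0.108, adjusted p = 0.155). Ung, the uracil DNA glycosylase that removes uracil left in new DNA, had 9.04 and 8.56 FPKM at E12.5, then 10.9 and 11.5 in mutants and 11.8 and 11.4 in controls. It rose in every E13.5 library over both E12.5 libraries, 1.27-fold (log2 0.34, SE 0.101, adjusted p = 0.048).

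Within each genotype the age difference had the same sign for most members. In the controls, 40 of 46 were lower at E13.5 (mean of 2 libraries) than at E12.5 (1 library), with a median of -0.23 against 0.00 for all genes tested. In the mutants 43 of 46 were lower, with a median of -0.38 against -0.13. On this authors' scale, 45.9% and 54.1% of genes tested were lower in E13.5 control replicates 1 and 2 than in the E12.5 control. For E13.5 mutant replicates 1 and 2 against the E12.5 mutant these shares were 68.9% and 63.0%. On the authors' scale both within-genotype differences were negative in 38 members, and both were positive in Gins2 and Ung only. After scaling to one FPKM sum, E13.5 control replicates 1 and 2 had 41 and 42 members below the E12.5 control, against 58.5% and 57.6% of genes tested. E13.5 mutant replicates 1 and 2 had 43 and 33 members below the E12.5 mutant on that scale, against 49.8% and 40.2% of genes. The median member was then at -0.28 and -0.29 in control replicates 1 and 2, against -0.06 for all genes in each. In mutant replicates 1 and 2 it was at -0.25 and -0.11, against 0.0 and 0.08. The larger drop in mutants on the authors' scale was thus not kept after scaling. The comparison of E13.5 mutant replicate 2 with the E12.5 mutant is between libraries that both hold Xist RNA, and its median member was at -0.11 against 0.08 for all genes.

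**Figure D4:**
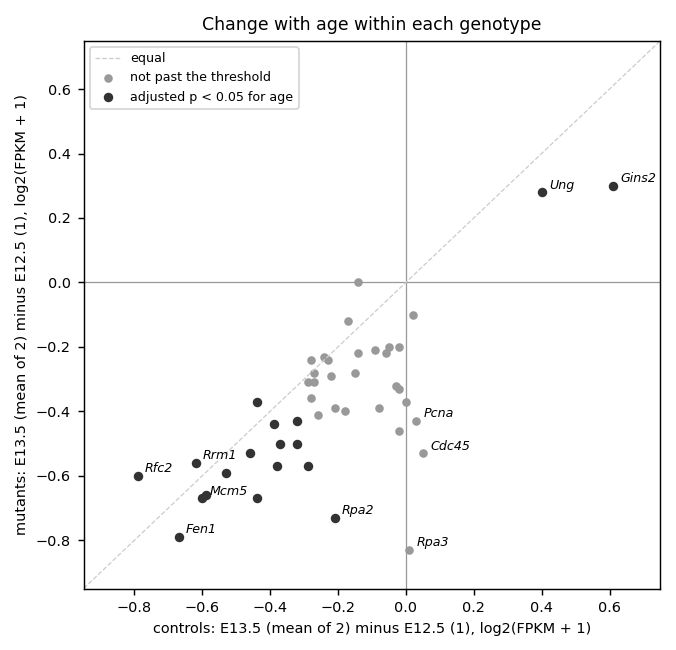
Difference between E13.5 and E12.5 in the controls (horizontal) and in the mutants (vertical) for each of the 46 genes, each from the mean of 2 E13.5 libraries minus 1 E12.5 library on the log2(FPKM + 1) scale. Black points passed the age test; 38 genes lie at lower left, Gins2 and Ung in the upper right, and Pcna, Cdc45 and Rpa3 near 0 for the controls and at -0.43 to -0.83 for the mutants, on the authors' scale.

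The comparison of mutants with controls at E13.5 asks whether the replication programme differs when Osr2 is mutated, and no member passed the threshold (limma, 2 against 2 libraries; 1.29% of all genes tested did). At an unadjusted p under 0.05 there were 2 members, Rrm1 and Pola1 (4.35%, against 9.24% of genes), and the smallest adjusted p was 0.402. The median member was 0.08 higher in mutants, against 0.04 for all genes, with members from -0.36 (Rpa3) to 0.36 (Rrm1) and a median standard error of 0.134. Both mutants lay above both controls for 14 members (30.4%, against 24.8% of genes) and below for 4 (8.7%, against 13.2%), namely Orc6, Gins2, Pold1 and Rpa3. After scaling to one FPKM sum these were 13 (28.3%, against 22.7% of genes) and 6 (against 14.9%), with a median of 0.07 against 0.03 and again 2 at an unadjusted p under 0.05. Over both ages no member passed either (1.44% of genes did), 7 had an unadjusted p under 0.05 (15.2%, against 13% of genes), and the smallest adjusted p was 0.188. That count of 7 was 2 after scaling to one FPKM sum, and leaving out a library gave 1 (without E13.5 mutant replicate 2 or control replicate 2), 2 (without either E12.5 library), 11 (without E13.5 control replicate 1) or 13 (without E13.5 mutant replicate 1). At E13.5 the count of 2 became 0 to 1 without E13.5 mutant replicate 2 or either control, and 7 without mutant replicate 1. With the title number as a block, no member passed over both ages (13 at an unadjusted p under 0.05, smallest adjusted p 0.164). By sign 41 members were higher in mutants over both ages, and 30 after scaling to one FPKM sum. Much the same shift was present in all genes tested. The median member was at 0.13 against 0.09 for all genes, and at 0.04 against 0.0 after that scaling. A p that misses the threshold does not show that the genotypes had equal levels.

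The 6 members with the smallest unadjusted p for genotype were Pola1, Rrm1, Rfc1, Mcm7, Rfc4 and Slbp, all higher in mutants. Pola1, the catalytic subunit of polymerase alpha, on the X chromosome, was at 5.0 (mutant) and 3.94 (control) FPKM at E12.5, and at 3.95 and 4.23 (mutants) and 3.16 and 2.98 (controls) at E13.5. Mutants were above controls at each age on the authors' scale, by 0.31 on the log2 scale over both (SE 0.093, unadjusted p = 0.00831, adjusted p = 0.188). For Rrm1, whose values are given above, the difference was 0.34 (SE 0.106, adjusted p = 0.205). Rfc1 was at 15.7 and 12.4 FPKM at E12.5, then 11.9 and 13.6 in mutants and 10.5 in both controls, again with mutants above controls at each age on that scale (log2 0.28, SE 0.0996, adjusted p = 0.273). The differences over both ages of Mcm7 (0.29), Rfc4 (0.30) and Slbp (0.23) had adjusted p-values of 0.314 to 0.383. After scaling to one FPKM sum, the E12.5 difference of Pola1 went from 0.28 to 0.04, that of Rrm1 from 0.30 to 0.02 and that of Rfc1 from 0.32 to 0.05.

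At E12.5, with 1 library of each genotype, no test was made. On the authors' scale the mutant was above the control for 43 of 46 members (93.5%, against 79.2% of genes tested), and the median difference was 0.24 against 0.18 for all genes. Scaling to one FPKM sum left 20 of 46 higher (43.5%, against 37.5% of genes) with a median of -0.03 against -0.06, so the direction for these genes at E12.5 turns with the scaling. No member differed by 1 or more on the log2 scale, where 0.673% of genes at 5 FPKM or more were higher and 0.263% lower by that much, and Pcna, at 0.53, was the only one above 0.5 (8.24% of those genes were). The E12.5 mutant was the highest of the 6 libraries for 40 members (87.0%, against 44.8% of genes), and after scaling for 15 (32.6%, against 14.6%), with 19 highest in the E12.5 control.

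**Figure D5:**
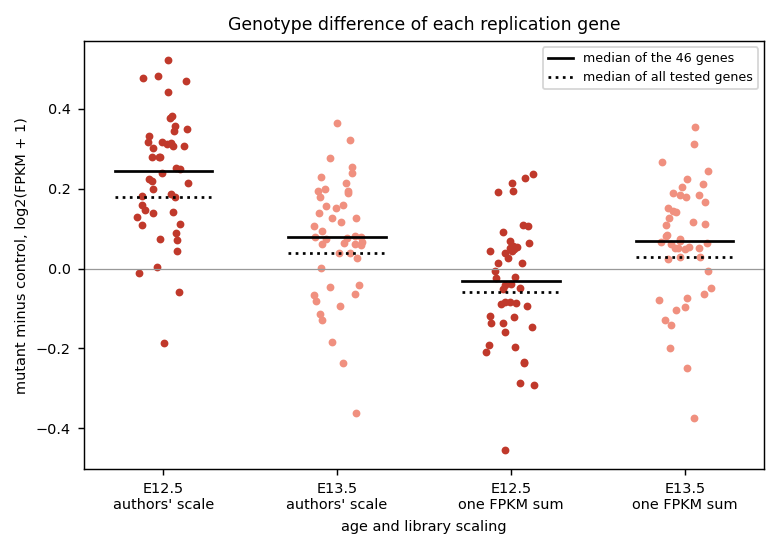
Mutant minus control difference of each of the 46 genes on the log2(FPKM + 1) scale, at E12.5 (1 library each) and E13.5 (means of 2 libraries each), on the authors' scale and after scaling to one FPKM sum. Solid lines are the median of the 46 genes and dotted lines the median of all genes tested; at E12.5 the solid line moves from 0.24 to -0.03 with the scaling.

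Whether the genotype difference changed with age was tested as an interaction, and no member passed (0.037% of all genes did; the smallest adjusted p was 0.833). Cdc45, Rpa2 and Rpa3 had an unadjusted p under 0.05, as did 5.81% of all genes, and no member had after scaling to one FPKM sum or without E13.5 control replicate 1. The median of the members was -0.12, with 39 of 46 below 0, against -0.13 for all genes, and 0.13 against 0.10 after scaling to one FPKM sum, with 35 of 46 above 0. Rpa3 was 0.47 higher in the mutant at E12.5 and 0.36 lower in the mutants at E13.5, an interaction of -0.83 (adjusted p = 0.833). Its E12.5 difference was 0.19 after scaling to one FPKM sum. E13.5 mutant replicate 2, at 9.95 FPKM, lay far below mutant replicate 1, at 16.5. Without replicate 1 the mutant arm is that 1 low library, assumed to vary like the other groups, and Rpa3 was then past the threshold at E13.5 (log2 -0.70, SE 0.123, adjusted p = 0.0384), a value that restates the low library. Gins2, 0.07 higher in the mutant at E12.5 and 0.24 lower at E13.5, had an interaction of -0.31 (adjusted p = 0.867). After scaling to one FPKM sum its E12.5 difference was -0.20, so on that scale mutants were lower at both ages. The scaled E13.5 values were 26.8 and 25.4 FPKM in mutants against 30.2 and 32.2 in controls.

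Genes around the replication machinery moved with age in several directions. For comparison, 9.26% of all genes tested were called lower with age and 7.45% higher. Of 39 tested replication genes outside the 46, 12 fell and 1 rose (median -0.29), with 0 called without the E12.5 mutant library and 5 without the E12.5 control. Among those that fell was Gmnn, which encodes geminin, a blocker of Cdt1, and was 1.7-fold lower (21.3 and 16.9 FPKM at E12.5, 9.74 to 11.5 at E13.5, adjusted p = 0.00289). Also lower were Cdc7, the kinase that fires origins (1.47-fold, adjusted p = 0.00751), Dut, which clears dUTP (1.44-fold, adjusted p = 0.0091), and Asf1b, a histone chaperone (1.43-fold, adjusted p = 0.00959). Of 30 genes of G2 and mitosis, 19 fell and none rose (median -0.45), and 1 and 5 were called without the E12.5 mutant and without the E12.5 control. Ccnb2, a mitotic cyclin, was 1.74-fold lower (34.9 and 29.6 FPKM at E12.5, 17.5 to 19.0 at E13.5, adjusted p = 0.00195), and its call held in all 16 alternatives, the one without the E12.5 mutant included. Kif20a, Racgap1 and Nusap1, which act in cell division, were 1.47-fold to 1.55-fold lower (adjusted p = 0.00724 to 0.00959).

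The lists below are to be read beside the 9.26% of all genes tested that fell and the 7.45% that rose. Of 27 tested genes of G1/S control, 7 fell and 3 rose (median -0.24), with 2 and 4 called without the E12.5 mutant and without the E12.5 control. Those that rose were Myc, Ccnd3 and E2f1. Myc, a transcription factor that promotes growth, was at 15.1 (mutant) and 7.99 (control) FPKM at E12.5, and at 33.6 and 31.2 (mutants) and 22.3 and 20.7 (controls) at E13.5. Mutants exceeded controls at each age and each genotype was higher at E13.5, with 2.28-fold for age (adjusted p = 0.000318) and 1.58-fold for genotype over both ages (log2 0.66, SE 0.109, adjusted p = 0.0176). The genotype call was lost in 6 of 17 alternatives (adjusted p up to 0.125): without a filter, with the title number as a block (adjusted p = 0.0779), and without either E12.5 library, E13.5 mutant replicate 1 or E13.5 control replicate 1. Its relative Mycn went the other way, 2.09-fold lower at E13.5 (9.97 and 5.73 FPKM at E12.5, 2.01 to 3.91 at E13.5, adjusted p = 0.00247). E2f1, an E2F family activator, was 1.43-fold higher (2.85 and 4.15 FPKM at E12.5, 4.89 to 5.99 at E13.5, adjusted p = 0.0125), and Ccnd3, a D-type cyclin, 1.75-fold higher (adjusted p = 0.0036). Of 4 tested inhibitors of cyclin-dependent kinases, Cdkn1c rose 1.55-fold (adjusted p = 0.0137) and Cdkn2d 1.48-fold (adjusted p = 0.0251), and without the E12.5 mutant or the E12.5 control neither was called. Without the E12.5 mutant library, of the genes named in these lists only Myc, Mycn and Ccnb2 kept their age call.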

How the data were processed

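RNA was sequenced from 6 libraries of sorted palatal mesenchyme. The authors' deposited tables, labelled as Cufflinks output (version not given in the sources used here), give FPKM per RefSeq transcript. The submitters' processing notes name TopHat 1.4.1, Bowtie 0.12.7 and builds mm10 and mm9, and the members' loci lie within their genes on GRCm38. More than one library kit is named in the labels (Nextera, TruSeq stranded), so strand use is unknown. The deposited coverage signal served only to estimate depth (pairs of 75-base reads). No read counts were given, so precision comes from the spread between libraries.

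FPKM was summed per gene symbol, leaving out 25 symbols with failed estimates, none of them a member. Genes with at least 1 FPKM in at least 2 libraries were tested on log2(FPKM + 1), which understates changes of low genes, with limma 3.58.1 (R 4.3.3; moderated, intensity trend, two-sided, Benjamini-Hochberg over all genes, threshold 0.05). One mean per group gave the E13.5 genotype contrast and the interaction; an additive fit gave age and genotype over both ages. The lone E12.5 libraries are assumed to vary like the others. The scripts were tested on simulated data.

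The members, lists and tests were chosen with earlier results of these data known. Values in all libraries are given for members past the threshold, the most abundant member of each role and the 6 smallest p-values for age and genotype; genes of other lists are named when past the threshold, at most 4 per list and contrast. Motif matches were counted in RefSeq promoter windows of GRCm38.p6. The 13 kinds of alternative covered scaling, pseudocount, filters, trend, transcript choice and leaving out each library, and a block on the title number was added after seeing the data.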

Additional observations from a re-analysis of the deposited data

How the results depend on the processing

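None of the results followed reversed in sign where it had been called, and every one of the 18 members called for age kept its direction in all alternatives tried. Without a filter on low values and with all 6 libraries, age calls over all genes went from 1804 of 10799 to 679 of 17711. Members called lower with age then went from 16 to 5. Members called higher went from 2 to 0 without a filter, and to 1 with no intensity trend or with only the highest transcript per gene. Leaving out 1 library gave 0 to 11 called lower and 0 to 1 called higher, and a median of -0.38 to -0.23. The median age difference was -0.21 with one FPKM sum or one upper quartile. The median genotype difference over both ages was 0.04 with one FPKM sum, 0.05 with median ratio scaling and 0.03 with one upper quartile, and that of the interaction, -0.12 on the authors' scale, was 0.13, 0.00 and 0.02. At E12.5 the median was -0.03, 0.07 and 0.04 under these 3 scalings, and a fold limit of 0.5 in place of 1 gave 1 member higher. For genotype at E13.5, leaving out 1 library gave 0 to 1 member called lower. Over all genes, calls ranged from 465 to 1927 for age, 0 to 192 for genotype at E13.5 and 0 to 170 for genotype over both ages. The causes were not tested.

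The labels give no replicate numbers, only the title number that 3048 and 2962 libraries of both genotypes share. Taking it as a block in place of age, a fit chosen after seeing the data, gave 0 members called for genotype over both ages and a median of 0.18, with 61 genes called in all against 156. Mutant replicate 1 is alone in its block, so it adds nothing to that genotype difference. Rfc5 was not tested when a mean of 5 FPKM was required.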
